A study of Mus musculus with 16 samples.

Results

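Endothelial lipase and 9 other genes of fatty acid handling were followed in endothelial cells (ECs), which form the inner lining of vessels, sorted from the lungs of 4 groups of mice. They were Lipg, Lpl, Gpihbp1 and Angptl4 (lipolysis at the vessel wall), Cd36, Fabp4 and Fabp5 (uptake and transport), and Meox2, Tcf15 and Pparg (transcription factors). All 10 symbols occurred once among the 43346 genes of the count table, and all 10 passed the filter on low counts in each of the 5 comparisons. The genes were chosen by name with the values of these same libraries in view, so their levels and fold changes are given as a description and carry no test of their own. After bleomycin in young mice, Lipg was far lower, Fabp5, Pparg, Lpl, Fabp4 and Gpihbp1 were higher, and Cd36, Angptl4, Tcf15 and Meox2 were not called.

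Triglyceride in circulating lipoproteins is cut into free fatty acids on the luminal face of capillaries. Lipoprotein lipase (Lpl) does this work once Gpihbp1, a protein tethered to the endothelial surface, has carried it there, and the secreted protein Angptl4 inhibits it. Endothelial lipase (Lipg) belongs to the same family but acts mainly on phospholipids of high-density lipoprotein, and it is made by ECs themselves. Cd36 takes up long-chain fatty acids at the membrane, and the small carriers Fabp4 and Fabp5 bind them in the cytosol. Meox2 and Tcf15 are known as a factor pair that drives fatty acid transport in heart capillaries, and Pparg is a lipid-sensing nuclear receptor whose known targets include Cd36, Fabp4, Lpl and Angptl4.

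The mice were of the FVB strain and, per the study's methods, carried a Col1a1-GFP reporter and were of both sexes. The age was 2 months in the young groups and 18 months in the aged ones. Young Bleo (n = 4) and Aged Bleo (n = 4) received bleomycin, which injures the lung and causes fibrosis, into the trachea. Young Sham (n = 5) and Aged Sham (n = 3) received the carrier alone. Each library was 1 mouse, collected about a month after delivery. The sort kept CD31-positive cells that lacked CD45, EpCAM and GFP, and no count of its purity was used here.

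Library totals ran from 20.9 to 71.0 mega-counts. The 12 pan-endothelial markers were present in every library, at a summed 1797 to 3108 FPKM (fragments per kilobase of gene, scaled to library depth), and Pecam1, the gene of CD31, was at 66.6 to 152 FPKM. By group the sums were 2779 to 3108 FPKM in Young Sham, 1912 to 2458 in Young Bleo, 2424 to 2694 in Aged Sham and 1797 to 2451 in Aged Bleo. Young Sham thus lay above the other groups without overlap. Markers of other cells were not at 0. The 12 alveolar epithelial markers summed to 61.3 to 246 FPKM in Young Sham and 152 to 409 in Young Bleo. They summed to 120 to 320 FPKM in Aged Sham and 76.8 to 399 FPKM in Aged Bleo. Sftpc alone was at 43.4 to 378 FPKM. The part of epithelial RNA in the levels of the 10 genes was not tested. The 20 macrophage markers summed to 23.8 to 44.6 FPKM in Young Sham and to 158 to 462 in Young Bleo. They summed to 55.1 to 190 FPKM in Aged Sham and to 222 to 1644 FPKM in Aged Bleo. Platelet markers summed to 3543 FPKM in Aged Sham replicate 14 against 68.7 to 986 FPKM elsewhere. Lyz2 alone was at 20.9 to 1265 FPKM, while Ptprc, the gene of CD45, was at 0 to 0.517 FPKM and Siglecf was at 0 in 5 libraries. The 10 adipocyte markers, which matter for genes shared with fat, summed to 1.27 to 3.07 FPKM in Young Sham and 3.19 to 4.53 FPKM in Young Bleo. Their sums were 1.92 to 3.59 FPKM in Aged Sham and 1.39 to 3.59 FPKM in Aged Bleo. Of that list, Thrsp was at 0.640 to 1.54 FPKM in Young Sham and 2.87 to 3.91 FPKM in Young Bleo, and Lep was at 0 in all 16 libraries. In bulk RNA from a sort, fewer cells of a type and less RNA per cell cannot be told apart.

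Compared per length, the 10 genes spanned 3 orders of magnitude in ECs of Young Sham mice. Cd36 was the highest at 445 ± 25.6 FPKM (SD, n = 5), followed by Gpihbp1 at 112 ± 14.2 FPKM and Fabp4 at 5.67 ± 1.36 FPKM. The libraries of these 3 genes did not overlap. Tcf15 (2.48 ± 0.432 FPKM) and Fabp5 (2.46 ± 0.201 FPKM) overlapped, and so did each neighbouring pair among Angptl4 (1.50 ± 0.330 FPKM), Lpl (1.05 ± 0.430 FPKM), Pparg (0.965 ± 0.0503 FPKM), Lipg (0.771 ± 0.339 FPKM) and Meox2 (0.398 ± 0.0944 FPKM). After bleomycin in young mice the order was different below Cd36 and Gpihbp1. Fabp5 reached 30.1 ± 13.0 FPKM (SD, n = 4) and came next after Gpihbp1, Pparg and Lpl stood at 7.74 ± 1.67 and 7.35 ± 3.58 FPKM, and Lipg was last at 0.0214 ± 0.0142 FPKM. The length used for Fabp4, 4489 bases, covers the whole gene with its introns, which lowers its FPKM against genes whose length counts exons only. The lengths used for Fabp5 (3567 bases) and Gpihbp1 (2554 bases) also cover most of each gene. The FPKM values of these genes, and ratios made from them, carry the same limit.

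**Figure D1:**
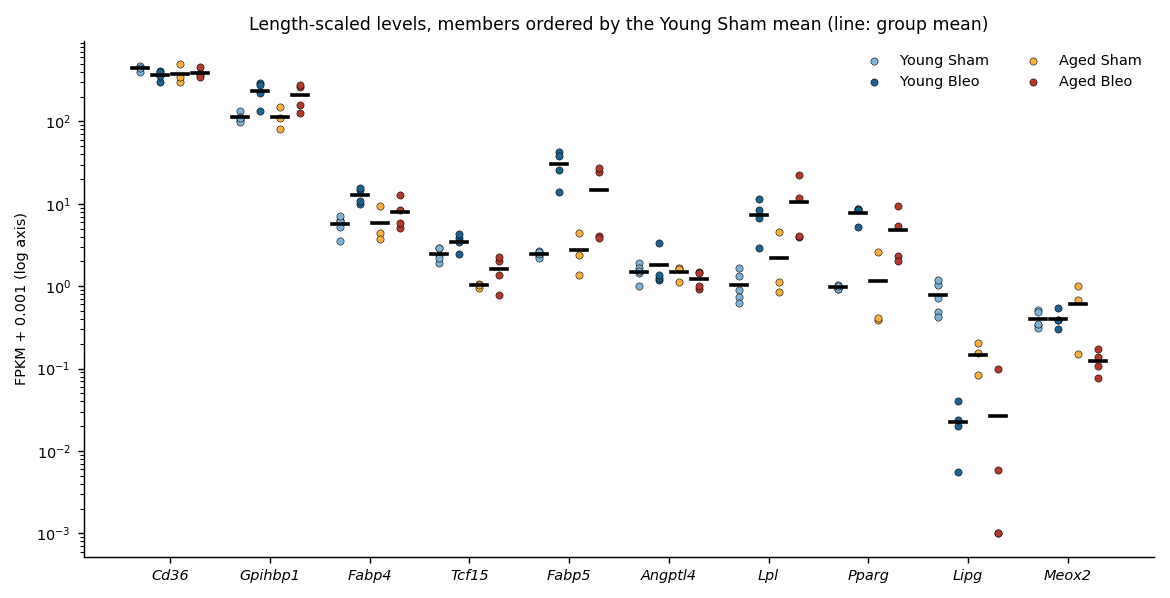
Level of each gene in FPKM (plus 0.001, log axis), 1 point per library, coloured by group, with a line at the group mean; genes are ordered by their Young Sham mean. Cd36 stays near 400 FPKM in all 4 groups, Fabp5, Lpl and Pparg are higher in both bleomycin groups, and Lipg drops from 0.771 to 0.0214 FPKM between Young Sham and Young Bleo.

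Lipg (ENSMUSG00000053846, protein coding, mm10 chr18:74939322-74961263) encodes endothelial lipase. Values from here on are normalized counts, which are read counts divided by a size factor for each library, unless FPKM is named. The 5 Young Sham libraries had 397, 441, 178, 291 and 165 normalized counts of Lipg. The 4 Young Bleo libraries had 1.73, 7.28, 8.82 and 13.9, and the 3 Aged Sham libraries had 89.9, 34.6 and 61.2. In Aged Bleo, replicates 1 and 2 had 0 counts, which allows up to 3 counts each, replicate 3 had 1.80 and replicate 5 had 36.5. Every Young Sham library lay above every library of the other 3 groups, and Aged Sham lay above Young Bleo without overlap.

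Lipg was 37.1-fold lower in Young Bleo than in Young Sham (log2 fold change -5.21, SE 0.94) and 31.0-fold lower in Aged Bleo than in Young Sham (log2 fold change -4.95, SE 0.93). Both were called by DESeq2 (adjusted p of at most 0.05 and a log2 fold change of at least 0.5 in size) and by edgeR. Between the sham groups, Lipg was 4.77-fold lower in aged mice (log2 fold change -2.25, SE 1.00), which was not called although the libraries did not overlap. Aged Bleo against Aged Sham gave a log2 fold change of -2.70 (SE 1.06), also not called. That comparison rested on Aged Bleo replicate 5, whose 36.5 normalized counts lay above the 34.6 of Aged Sham replicate 14. With all Aged Bleo libraries in the fit, Lipg was 6.50-fold lower than in Aged Sham. Replicate 5 was left out after its high value was seen, so the values that follow depend on that choice. The other 3 Aged Bleo libraries held 3 raw counts of Lipg in all. On these counts Lipg was 88.7-fold lower than in Aged Sham (95% exact Poisson interval 30.4 to 430.3) and 422-fold lower than in Young Sham (144 to 2046). These intervals cover counting error in Aged Bleo only and take the sham mean as fixed. Both Aged Bleo against Aged Sham and Aged Sham against Young Sham were called for Lipg once replicate 5 was left out.

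The markers of pericytes and smooth muscle, cells that wrap the vessel, moved with Lipg. The 10 genes of that list summed to 59.3 to 122 FPKM in Young Sham, 20.3 to 51.5 in Young Bleo, and the aged groups reached 32.3 to 56.9 (sham) and 13.7 to 25.7 FPKM (bleomycin). All 10 were called lower in Aged Bleo than in Young Sham (9 by edgeR), 6 were called lower in Young Bleo than in Young Sham (4 by edgeR), and the pericyte receptor Pdgfrb was at 2.15 to 7.56 FPKM in Young Sham against 0.0420 to 0.861 FPKM in Aged Bleo. The aerocyte markers, genes of the large capillary cells that line the site of gas exchange, were lower with Lipg in the bleomycin groups but not in Aged Sham. DESeq2 called all 10 lower in Young Bleo than in Young Sham (8 by edgeR) and 4 of 10 with Aged Bleo against Young Sham (1 by edgeR). Between the shams 0 of 10 were called by either tool, and the sums overlapped, at 2501 to 4178 FPKM in the aged and 3376 to 4161 FPKM in the young libraries. They summed to 634 and 889 FPKM in Aged Bleo replicates 1 and 2, which had 0 counts of Lipg and the lowest sums of their group. Aged Bleo replicate 3 had the highest sum of that group (2874 FPKM) with 1.80 normalized counts of Lipg, against 2327 FPKM in replicate 5 with 36.5. Young Bleo replicate 20 had the most Lipg of its group and also the highest aerocyte sum there (2130 FPKM). The part of any of these cells in the level of Lipg was not tested. Over the 16 libraries the genes of most like pattern to Lipg among 13774 genes with a mean of at least 50 normalized counts were Tbx5, Gucy1a3 and Foxf2, which differed from it by a root mean square of 1.36, 1.37 and 1.45 log2 units. All 3 were highest in Young Sham (Tbx5 216 ± 77.7, Gucy1a3 3016 ± 1217, Foxf2 455 ± 182 normalized counts, SD, n = 5) and lowest in Aged Bleo (28.8 ± 34.7, 282 ± 236 and 56.7 ± 55.3, SD, n = 4). The likeness was loose, since the spread of Lipg about its own mean was 2.91 log2 units.

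**Figure D2:**
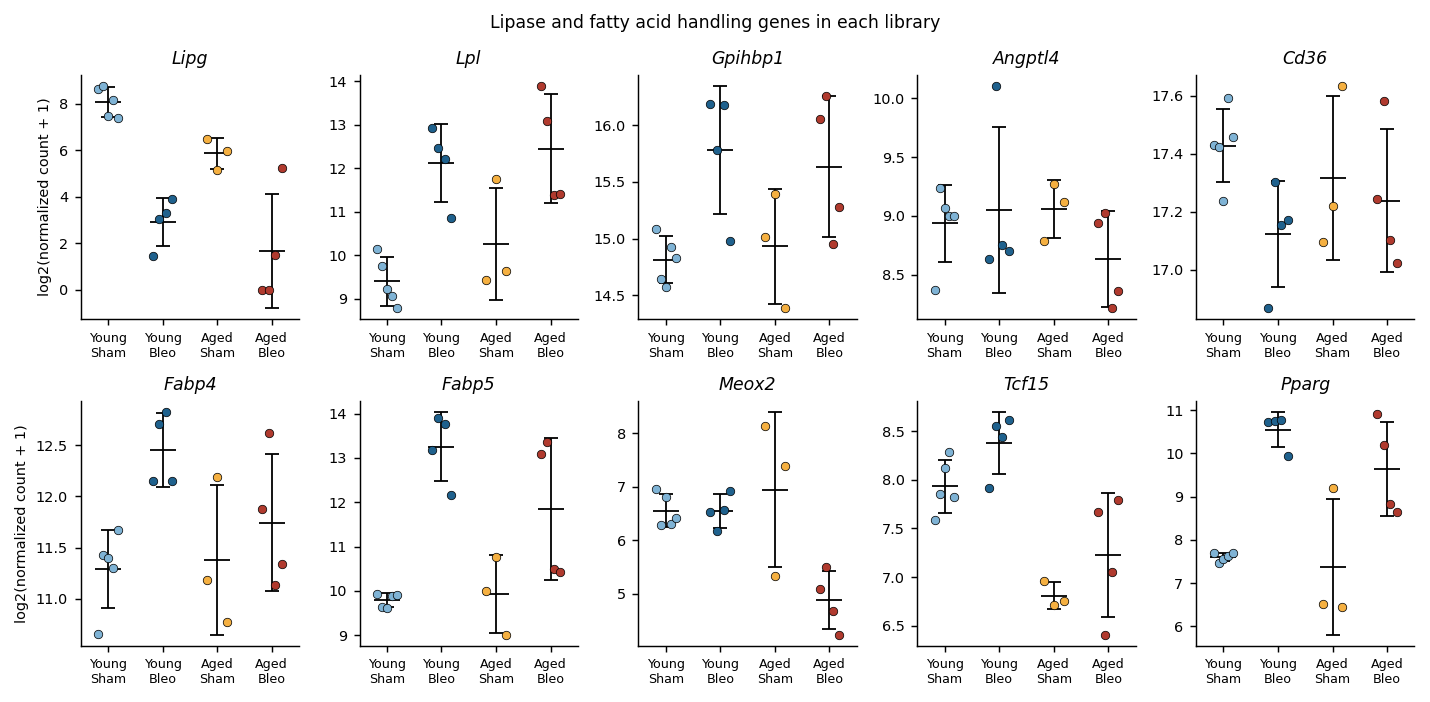
Each panel shows 1 gene as log2(normalized count + 1) on its own axis, 1 point per library and group, with the group mean and SD of the log2 values. Lipg is lowest in the bleomycin groups, Lpl, Fabp5 and Pparg are highest there, and Cd36 spans less than 1 log2 unit over all 16 libraries.

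Lpl (ENSMUSG00000015568, mm10 chr8:68880491-68907448), the lipase that Gpihbp1 carries, was higher after bleomycin at both ages. Young Sham libraries had 1140, 869, 601, 532 and 440 normalized counts. Young Bleo had 7848, 5655, 4723 and 1851, Aged Sham had 685, 3450 and 795, and Aged Bleo had 15284, 8718, 2686 and 2724. Both bleomycin groups lay wholly above Young Sham, whereas Aged Sham replicate 14 reached into the range of Aged Bleo. Lpl was 7.01-fold higher in Young Bleo than in Young Sham (log2 fold change 2.81, SE 0.64), 10.3-fold higher with Aged Bleo against Young Sham (3.36, SE 0.64) and 4.47-fold higher in Aged Bleo than in Aged Sham (2.16, SE 0.72). All 3 were called by DESeq2. The last was not called by edgeR, and it was called in only 4 of the 16 fits that each left out 1 library. Its log2 fold change ran from 1.52 to 3.31 over these fits, the highest without Aged Sham replicate 14.

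Lpl is also a product of macrophages, and here it moved with the macrophage markers. Aged Bleo replicate 1 had the highest Lpl and the highest macrophage sum (1644 FPKM), replicate 2 had the second highest of both (959 FPKM), and Aged Sham replicate 14 stood out from its group in both (190 FPKM, against 55.1 and 57.6 FPKM in the other two). The gene of most like pattern to Lpl was Lyz2, itself on the macrophage list, with a root mean square difference of 0.460 log2 units, followed by Csf2ra (0.461) and Amd2 (0.508). Of the 20 macrophage markers, DESeq2 called 13 higher in Young Bleo than in Young Sham (13 by edgeR) and 12 in Aged Bleo than in Aged Sham (4 by edgeR). The 5 libraries highest in Lpl (Aged Bleo 1 and 2 and Young Bleo 17, 18 and 19) were also the 5 lowest in aerocyte markers (634 to 941 FPKM) and the 5 highest in large vessel markers (566 to 630 FPKM). The part of any of these cells in the level of Lpl was not tested. In a fit without Aged Bleo replicates 1 and 2, chosen after seeing their marker sums, Lpl had a log2 fold change of 0.72 against Aged Sham and 1.92 against Young Sham and was called in neither.

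Gpihbp1 (ENSMUSG00000022579, mm10 chr15:75596628-75599481), which binds Lpl and moves it across the capillary wall, was the second most abundant of the 10 genes in every group. Its normalized counts were 34806, 25579, 24428, 31164 and 29161 in Young Sham and 74397, 56364, 74203 and 32375 in Young Bleo. Aged Sham had 33123, 42927 and 21409, and Aged Bleo had 68188, 78056, 31697 and 39676. Young Bleo replicates 17, 18 and 19 and Aged Bleo replicates 1 and 2 exceeded every sham library, and the others fell within the sham range. Gpihbp1 was 2.04-fold higher in Young Bleo than in Young Sham (log2 fold change 1.03, SE 0.29) and 1.87-fold higher with Aged Bleo against Young Sham (0.91, SE 0.29), both called by DESeq2. The second was not called by edgeR and was called in 11 of the 16 fits without 1 library (lost without Aged Bleo 1 or 2, or Young Sham 22, 23 or 25). Without Aged Bleo replicates 1 and 2 together its log2 fold change was 0.30. Against Aged Sham it was 0.74 (SE 0.33), not called.

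The libraries with high Gpihbp1 were those with low levels of aerocyte markers. The 10 aerocyte markers summed to 663 to 941 FPKM in Young Bleo replicates 17, 18 and 19 and to 634 and 889 FPKM in Aged Bleo replicates 1 and 2. They summed to 2130 to 2874 FPKM in the other 3 bleomycin libraries and to 2501 to 4178 FPKM in the shams. The 12 large vessel markers went the other way, at 566 to 630 FPKM in those 5 libraries, 342 to 511 FPKM in the other 3 bleomycin libraries and 222 to 309 FPKM in the shams. Of them, 8 were called higher in Young Bleo than in Young Sham (6 by edgeR). The 7 lymphatic markers were highest in Young Bleo (681 to 1529 FPKM, against 254 to 612 FPKM in the other groups), and the general capillary markers ranged from 568 to 985 FPKM over all libraries. The genes of most like pattern to Gpihbp1 were Sat1, Higd1a and Fam69a (0.165, 0.168 and 0.195 log2 units), all 3 higher in both bleomycin groups than in Young Sham by their means. The macrophage markers also moved with Gpihbp1, at 1644 and 959 FPKM in Aged Bleo replicates 1 and 2, and Young Bleo replicate 20, lowest of its group in Gpihbp1, had the lowest macrophage sum there (158 FPKM, against 313 to 462 FPKM). The part of any of these cells in the level of Gpihbp1 was not tested.

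Angptl4 (ENSMUSG00000002289, mm10 chr17:33773750-33781575), the secreted inhibitor of Lpl, was called in none of the 5 comparisons by DESeq2 or edgeR. Its normalized counts were 330, 603, 535, 511 and 510 in Young Sham, 395, 1103, 431 and 416 in Young Bleo. Aged Sham had 440, 617 and 554, and Aged Bleo had 491, 521, 296 and 327. The groups overlapped throughout, and Young Bleo replicate 18 was far above every other library. Its log2 fold change in Young Bleo against Young Sham was 0.23 (SE 0.31), and it was -0.26 without that library. Per length, Lpl over Angptl4 was 0.416 to 1.66 in Young Sham, 2.15 to 9.59 in Young Bleo. It was 0.693 to 2.70 with Aged Sham and 4.02 to 15.0 with Aged Bleo. The ratio of the 2 transcripts was thus above the Young Sham range in every bleomycin library, and also at the highest Aged Sham value (2.70). It is a ratio of RNA in sorted cells in bulk, and protein was not measured here.

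Cd36 (ENSMUSG00000002944, mm10 chr5:17781690-17888959), the fatty acid receptor, was the most abundant of the 10. Young Sham libraries had 154626 to 197577 normalized counts, with a mean of 176969 ± 15301 (SD, n = 5). Young Bleo had 119558 to 161609 (143721 ± 17563, SD, n = 4), Aged Sham had 139974 to 203630 (165432 ± 33686, SD, n = 3), and Aged Bleo had 133324 to 196148 (156439 ± 28014, SD, n = 4). The lowest and highest libraries of any 2 groups overlapped. The log2 fold changes ran from -0.30 (SE 0.15) in Young Bleo against Young Sham to 0.12 (SE 0.16) in Aged Bleo against Young Bleo, and none was called by DESeq2 or edgeR.

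The intracellular carriers were both higher in Young Bleo, by different sizes. Fabp4 (ENSMUSG00000062515, mm10 chr3:10204088-10208576) had 1610, 2754, 2704, 2521 and 3270 normalized counts in Young Sham and 4528, 6661, 7246 and 4535 in Young Bleo, with no overlap. Aged Sham had 2318, 4679 and 1749, and Aged Bleo had 3770, 6300, 2249 and 2583, which overlapped with both sham groups. Fabp4 was 2.23-fold higher in Young Bleo than in Young Sham (log2 fold change 1.16, SE 0.33), called by DESeq2 and edgeR and in all 16 fits without 1 library. In Aged Bleo its log2 fold change was 0.53 (SE 0.33) against Young Sham and 0.35 (SE 0.37) against Aged Sham, and neither was called. In Young Bleo against Young Sham, where Fabp4 was called, 13 of 20 macrophage, 4 of 7 lymphatic, 8 of 12 large vessel and 5 of 6 mesothelial markers were also called higher by DESeq2 (13, 3, 6 and 5 by edgeR). All 10 aerocyte and 6 of 10 pericyte and smooth muscle markers were called lower (8 and 4 by edgeR). The mesothelial markers, of cells that cover the lung, summed to 6.97 to 19.7 FPKM in Young Bleo and 0.721 to 2.92 FPKM in Young Sham. The part of these cells in the level of Fabp4 was not tested. The nearest patterns were those of Procr, the endothelial protein C receptor, Cenpt and Tmem88 (0.295, 0.297 and 0.315 log2 units).

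Fabp5 (ENSMUSG00000027533, mm10 chr3:10012548-10016607) showed the largest increase of the 10 genes in Young Bleo. Young Sham had 973, 796, 777, 948 and 958 normalized counts, and Young Bleo had 9263, 15289, 13916 and 4623. Aged Sham had 1013, 1739 and 515, and Aged Bleo fell into a high and a low pair, with 8748 and 10490 in replicates 1 and 2 and 1446 and 1365 in replicates 3 and 5. Both bleomycin groups lay wholly above Young Sham, while the low Aged Bleo pair lay within the range of Aged Sham. Fabp5 was 12.1-fold higher in Young Bleo than in Young Sham (log2 fold change 3.60, SE 0.51), 6.19-fold higher with Aged Bleo against Young Sham (2.63, SE 0.51) and 5.06-fold higher in Aged Bleo than in Aged Sham (2.34, SE 0.59). DESeq2 called all 3 and edgeR called the first 2. The last lost its call without Aged Bleo replicate 1 or Aged Sham replicate 13. Without Aged Bleo replicates 1 and 2 together the log2 fold change was 0.66 against Young Sham and 0.37 against Aged Sham, neither called, and -2.94 against Young Bleo, which was called.

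The 2 Aged Bleo libraries high in Fabp5 were again those low in aerocyte markers, and Young Bleo replicate 20, the lowest of its group in Fabp5, had the highest aerocyte sum of that group (2130 FPKM). Other lists moved with Fabp5 as well. Those 2 Aged Bleo libraries had the highest macrophage sums of all (1644 and 959 FPKM) and more large vessel markers than replicates 3 and 5 (597 and 566 against 342 and 358 FPKM), and Young Bleo replicate 20 had the lowest sum of its group for both lists (158 and 511 FPKM). The part of any of these cells in the level of Fabp5 was not tested. Fabp5 over Fabp4 per length was 0.362 to 0.761 in Young Sham, 0.371 to 0.550 in Aged Sham and 1.28 to 2.89 in Young Bleo. In Aged Bleo it ran from 0.665 to 2.92. Reads of Fabp5 can be shared with processed copies. Gm6166 matched its transcript at 98.3% over 409 bases and Gm14328 at 97.3% over 408 bases. Gm6166 held 16.6% to 24.4% of the counts of both genes in every group, and it had the pattern most like that of Fabp5 (0.170 log2 units). The split of shared reads between these genes by the counting is uncertain. The next nearest patterns were Cxcl12 (0.311), a chemokine gene also on the general capillary list, and Fam167b (0.408).

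**Figure D3:**
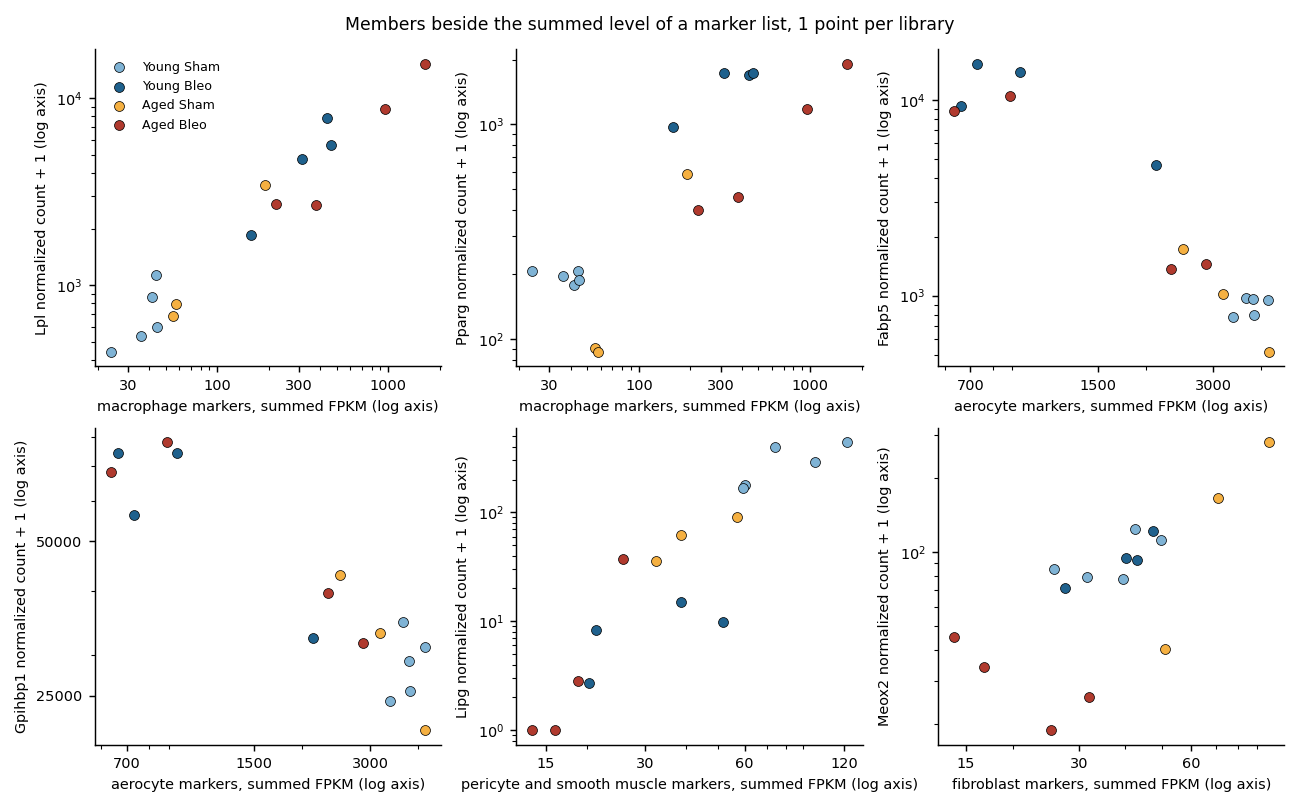
Each panel plots 1 gene (normalized count + 1, log axis) against the summed FPKM of a marker list (log axis), 1 point per library. Lpl and Pparg are shown against macrophage markers, Fabp5 and Gpihbp1 against aerocyte markers, Lipg against pericyte and smooth muscle markers and Meox2 against fibroblast markers; the libraries at the high end of macrophage markers (959 and 1644 FPKM) are Aged Bleo replicates 2 and 1.

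Among the factors, only Pparg (ENSMUSG00000000440, mm10 chr6:115361221-115490401) was called higher in any of the 5 comparisons. Young Sham libraries were tightly grouped at 205, 176, 187, 195 and 206 normalized counts, and Young Bleo had 1703, 1727, 1735 and 974. Aged Sham had 89.9, 584 and 85.9, and Aged Bleo had 1911, 1174, 457 and 397. Both bleomycin groups lay above Young Sham without overlap, 2 of 3 Aged Sham libraries lay below it, and replicate 14 lay within the Aged Bleo range. Pparg was 7.92-fold higher in Young Bleo than in Young Sham (log2 fold change 2.98, SE 0.51), 5.08-fold higher with Aged Bleo against Young Sham (2.34, SE 0.51) and 3.88-fold higher in Aged Bleo than in Aged Sham (1.96, SE 0.58). DESeq2 called all 3 and edgeR the first 2. The last lost its call without Aged Sham replicate 13 or 15, and fits without Aged Bleo replicate 1 or 2 gave Pparg no adjusted p. In the other fits without 1 library, the last log2 fold change ran from 1.54 to 3.49, the highest without Aged Sham replicate 14. Between the shams the log2 fold change was 0.39 (SE 0.56), not called, and without Aged Sham replicate 14 its sign turned to -1.14.

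Pparg is also strongly expressed in lung macrophages. Within Aged Bleo it followed the macrophage sum (1644, 959, 379 and 222 FPKM in replicates 1, 2, 3 and 5). Aged Sham replicate 14 was the highest of its group in both (584 normalized counts of Pparg, 190 FPKM). Young Bleo replicate 20 was the lowest of its group in both (974 normalized counts, 158 FPKM). Young Bleo replicates 17, 18 and 19, with 437, 462 and 313 FPKM, had 1703 to 1735 normalized counts of Pparg against 1911 in Aged Bleo replicate 1. The 5 libraries highest in Pparg (Young Bleo 17, 18 and 19 and Aged Bleo 1 and 2) were also the 5 lowest in aerocyte markers (634 to 941 FPKM) and the 5 highest in large vessel markers (566 to 630 FPKM). The part of these cells in the level of Pparg was not tested. The genes of most like pattern were Slc6a6, Fam167b and Atp13a3 (0.291, 0.387 and 0.407 log2 units). Slc6a6, the taurine transporter, had 13175 ± 3303 normalized counts in Young Sham (SD, n = 5) and 86985 ± 27118 in Young Bleo (SD, n = 4). Of the other 9 genes, Fabp5 had the pattern nearest to that of Pparg, ranked 13 of the genes compared, and Lpl was ranked 48, while Cd36 was ranked 8423.

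Of the 10 genes, 3 had start-site windows in the RefSeq promoter table (GRCm38.p6, which is mm10; 250 bases before to 50 after a start), namely Cd36, Pparg and Meox2. Those of Cd36 and of 2 Pparg starts are shown because Pparg was called higher while Cd36, its known target, was not, with capitals for each match to the half-site AGGTCA of nuclear receptors on either strand. AGGTCA occurred in 16.3% of the 32851 windows of that table, so a match is common and is not by itself a site. Lpl and Fabp4, known targets that were called higher, had no window, so the windows cannot bear on that contrast. The first window is chr5:17835847-17836146 on the minus strand. It lies at a start inside the Cd36 span of chr5:17781690-17888959, not at its outer end. The other 2 are chr6:115360894-115361193 and chr6:115362099-115362398 on the plus strand.
Cd36: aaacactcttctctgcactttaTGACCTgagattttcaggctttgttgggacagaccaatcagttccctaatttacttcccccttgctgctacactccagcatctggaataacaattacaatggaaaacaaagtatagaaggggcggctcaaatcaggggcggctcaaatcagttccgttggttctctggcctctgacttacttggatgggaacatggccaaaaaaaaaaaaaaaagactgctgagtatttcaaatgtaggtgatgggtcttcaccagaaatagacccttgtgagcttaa
Pparg first start: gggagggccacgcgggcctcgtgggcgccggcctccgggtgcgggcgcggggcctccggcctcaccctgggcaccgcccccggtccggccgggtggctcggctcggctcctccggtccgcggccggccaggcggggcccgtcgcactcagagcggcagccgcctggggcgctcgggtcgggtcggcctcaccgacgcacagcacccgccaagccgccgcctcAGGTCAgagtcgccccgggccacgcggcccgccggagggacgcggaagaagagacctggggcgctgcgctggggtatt
Pparg second start: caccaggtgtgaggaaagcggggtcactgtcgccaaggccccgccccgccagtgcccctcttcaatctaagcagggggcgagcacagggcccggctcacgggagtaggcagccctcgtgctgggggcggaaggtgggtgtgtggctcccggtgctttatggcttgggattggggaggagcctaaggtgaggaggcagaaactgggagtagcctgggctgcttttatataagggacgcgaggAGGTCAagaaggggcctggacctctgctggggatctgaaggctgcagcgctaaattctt

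The Cd36 window held 1 AGGTCA match, on the strand opposite to the gene, its first base 228 bases before the start. It also held 1 tandem pair of half-sites 1 base apart (the DR1 arrangement that PPAR and RXR bind) with 2 mismatches, its first base 63 bases before the start, and such a pair with at most 2 mismatches was found in 3.86% of all windows. Each of the 2 Pparg windows held 1 AGGTCA match, its first base 28 and 9 bases before the start, and no pair of that kind. The homeodomain core TAATTA, present in 5.29% of all windows, was in none of the member windows, including that of Meox2 and the remaining Pparg start (chr6:115421816-115422115). The E-box CANNTG, present in 72.3% of all windows, occurred 2 times in the Cd36 window and 1 time each in the Meox2 window and in the second and the remaining Pparg windows.

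Meox2 (ENSMUSG00000036144, mm10 chr12:37108540-37179534) was low in all libraries. It had 124, 76.6, 111, 78.4 and 84.1 normalized counts in Young Sham, 91.8, 70.7, 93.7 and 121 in Young Bleo. Aged Sham had 280, 39.2 and 165, and Aged Bleo had 32.9, 44.2, 24.6 and 17.8. Aged Bleo lay below both young groups without overlap, and it overlapped with Aged Sham only through replicate 14 of the latter. In young mice its log2 fold change with bleomycin was -0.00 (SE 0.44), not called. Meox2 was 5.37-fold lower in Aged Bleo than in Aged Sham (-2.42, SE 0.51), 3.16-fold lower than in Young Sham (-1.66, SE 0.45) and 3.15-fold lower than in Young Bleo (-1.66, SE 0.47). DESeq2 called these 3 and edgeR the first 2. The difference from Young Bleo was called in only 3 of the 16 fits without 1 library. The bleomycin response, aged minus young, differed by -2.42 (SE 0.67), which was not called.

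The fibroblast markers were lower in Aged Bleo than in Aged Sham, as Meox2 was, with 4 of 10 called by DESeq2 and 2 by edgeR. That list of 10 genes summed to 96.5, 51.1 and 70.9 FPKM in Aged Sham replicates 13, 14 and 15, the same order as Meox2. In Aged Bleo replicates 1, 2, 3 and 5 they summed to 16.7, 13.9, 32.0 and 25.3 FPKM, where replicate 2, with the lowest sum, had the highest Meox2. The young groups lay at 25.7 to 49.8 FPKM (sham) and 27.6 to 47.4 FPKM (bleomycin). The gene of most like pattern was Dcn (0.580 log2 units), which is on that list, followed by Pcdhb18 (0.582) and Rftn2 (0.591). Dcn was at 3240 ± 837 normalized counts (SD, n = 3) with Aged Sham against 1098 ± 280 (SD, n = 4) with Aged Bleo. Other lists were lower with Meox2 as well. In Aged Bleo against Aged Sham, 7 of 8 platelet markers (2 by edgeR) and 3 of 10 pericyte and smooth muscle markers (0 by edgeR) were called lower. In Aged Bleo against Young Sham, 10 of 10 pericyte and smooth muscle markers (9 by edgeR) but 0 of 8 platelet markers were called lower. The part of RNA from any of these cells in the level of Meox2 was not tested.

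Tcf15 (ENSMUSG00000068079, mm10 chr2:152143561-152149097), the partner of Meox2, was called in both comparisons of age and in none of bleomycin. It had 192, 231, 277, 310 and 225 normalized counts in Young Sham, 241, 373, 346 and 391 in Young Bleo. Aged Sham had 124, 104 and 107, and Aged Bleo had 202, 84.0, 131 and 221. Each aged group lay wholly below its young counterpart under the same treatment. Tcf15 was 2.22-fold lower with Aged Sham against Young Sham (log2 fold change -1.15, SE 0.31) and 2.12-fold lower in Aged Bleo than in Young Bleo (-1.08, SE 0.29). Both were called by DESeq2 and neither by edgeR, and DESeq2 kept them in 14 and 11 of the 16 fits without 1 library. The first was lost without Aged Sham 14 or 15, and the second without Aged Bleo 2 or 3 or Young Bleo 18, 19 or 20. Bleomycin gave log2 fold changes of 0.46 (SE 0.27) in young and 0.52 (SE 0.32) in aged mice, not called. The nearest patterns were Trpc2, Xndc1 and Aplnr (0.379, 0.388 and 0.393 log2 units). Aplnr, the apelin receptor and a general capillary marker, had 10718 ± 2291 normalized counts in Young Sham (SD, n = 5) and 4233 ± 1196 in Aged Sham (SD, n = 3). The general capillary list as a whole was lower between the shams, at 568 to 732 FPKM in the aged against 841 to 952 FPKM in the young libraries, with 3 of its 10 genes called lower (2 by edgeR). Between the bleomycin groups its sums overlapped, at 796 to 894 FPKM in the aged and 784 to 985 FPKM in the young libraries, with 1 of 10 called lower (0 by edgeR). Its part in the level of Tcf15 was not tested.

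**Figure D4:**
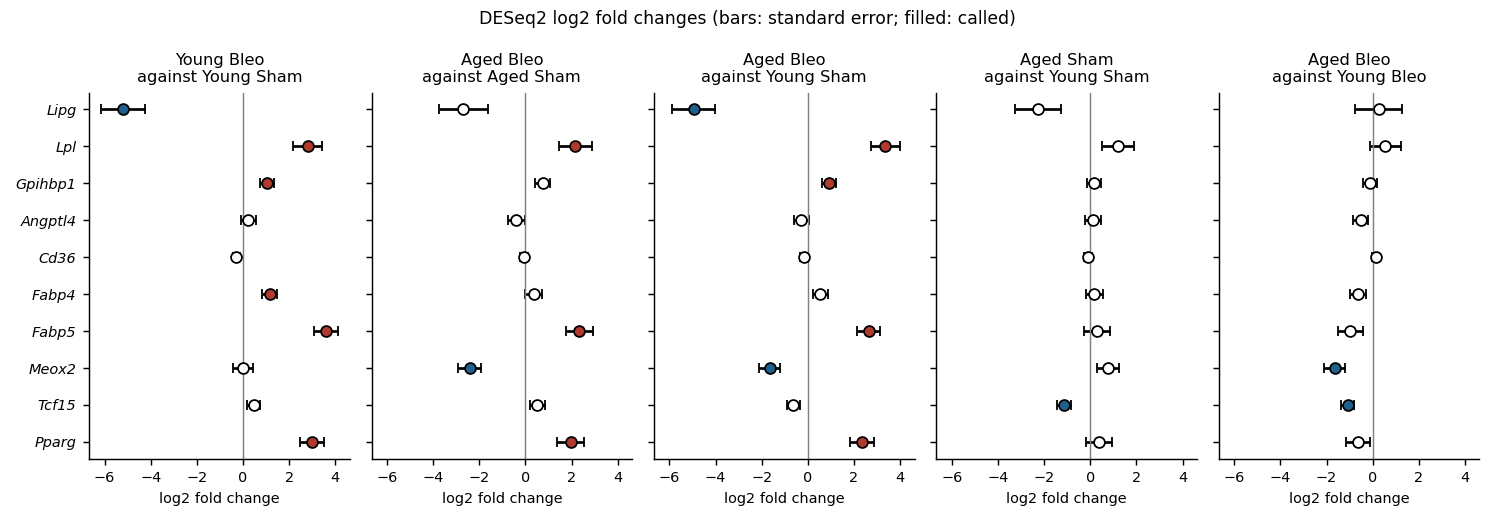
DESeq2 log2 fold changes with standard errors for the 10 genes in the 5 comparisons, on a shared axis. Filled points were called (red higher, blue lower) and open points were not; 6 genes are filled in Young Bleo against Young Sham, 4 in Aged Bleo against Aged Sham, 6 in Aged Bleo against Young Sham, 1 between the shams and 2 between the bleomycin groups.

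Counted together, 5 of the 10 genes were called higher and 1 lower in Young Bleo against Young Sham, where 7.57% of 18515 tested genes were called higher and 6.35% lower. Aged Bleo against Young Sham gave 4 higher and 2 lower (6.58% and 3.14% of all tested), and Aged Bleo against Aged Sham gave 3 higher and 1 lower (3.4% and 2.45%). For Aged Sham against Young Sham it was 0 higher and 1 lower (2.24% and 1.12%), and for Aged Bleo against Young Bleo 0 higher and 2 lower (0.585% and 0.406% of 18986). The median log2 fold change of the 10 genes was 0.74, 0.18, 0.44, 0.17 and -0.57 in these comparisons, in that order, against 0.01, 0.02, 0.01, 0.02 and 0.02 over all tested genes. Because the genes were chosen with these values known, nothing is read from the counts. The comparisons share samples with one another, so their calls are not separate evidence.

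edgeR called 6 of the 10 genes in Young Bleo against Young Sham, 5 in Aged Bleo against Young Sham and 1 in Aged Bleo against Aged Sham, where it called 9.78%, 5.69% and 0.797% of 18324 genes. It called 0 in Aged Sham against Young Sham and in Aged Bleo against Young Bleo (0.862% and 0.0437% of all), with 2 genes at an unadjusted p under 0.05 in each. When the bleomycin response of aged mice was set against that of young mice, DESeq2 called 0.378% of 20380 genes and 0 of the 10, and edgeR also 0 of the 10, with 1 gene, Meox2, at an unadjusted p under 0.05 by each tool. The response differences of Lipg (2.51, SE 1.42), Fabp5 (-1.26, SE 0.78) and Pparg (-1.03, SE 0.77) were not called.

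The rest of the pathway was followed in 8 lists with 126 genes outside the 10, of which 125 were tested. In Young Bleo against Young Sham, 19 of them (15.2%) were called higher and 14 (11.2%) lower, against 7.57% and 6.35% of all genes, with a median log2 fold change of 0.06 against 0.01 over all genes. Aged Bleo against Young Sham gave 17 higher (13.6%, against 6.58% of all genes) and 7 lower (5.6%, against 3.14%). Aged Bleo against Aged Sham gave 3 in each direction (2.4%), at or below the 3.4% and 2.45% of all genes. The comparison of shams gave 5 higher (4%, against 2.24%) and 1 lower (0.8%, against 1.12%), and that of the bleomycin groups 2 (1.59%, against 0.585%) and 1 (0.794%, against 0.406%). By edgeR the calls in these 5 comparisons were 24, 14, 1, 2 and 0, with 12 genes at an unadjusted p under 0.05 in the last. Of the DESeq2 calls named next, edgeR did not make those for Pcsk6, Lipa, Lipe, G0s2, Cpt1a, Acadl, Acadm and Scd2 in Young Bleo against Young Sham. It also did not make those for Me1, Elovl6, Cpt1a, Ppargc1a and Id2 in Aged Bleo against Young Sham, for Sdc1, Acot7, G0s2 and Tcf21 in Aged Bleo against Aged Sham, for Cebpa, Nr1h3 and Sdc4 between the shams, or for Me1, Sdc1 and Gpat3 between the bleomycin groups. Without 1 library, these DESeq2 calls held in 6 to 16 of 16 fits.

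Of 19 genes for lipolysis at the vessel wall, 6 (31.6%) were called higher and 1 (5.26%) lower in Young Bleo than in Young Sham, against 7.57% and 6.35% of all genes. Sdc1, a heparan sulfate proteoglycan that binds lipoproteins, rose from 385 ± 57.6 (SD, n = 5) to 933 ± 153 normalized counts (SD, n = 4; log2 fold change 1.28, SE 0.19, DESeq2 adjusted p = 1.12e-08). Pcsk6, a protease of the family that cleaves lipases, rose by 1.15 on the log2 scale (SE 0.41, DESeq2 adjusted p = 0.0376). Pltp, the phospholipid transfer protein, fell from 197906 ± 8913 to 138533 ± 11393 normalized counts (DESeq2 adjusted p = 0.00889). Aged Bleo against Young Sham gave 7 higher (36.8%, against 6.58% of all genes) and 1 lower (5.26%, against 3.14%). Among them Apoe, which macrophages also make, had a log2 fold change of 1.44 (SE 0.32, DESeq2 adjusted p = 0.000316) and Pltp of -0.59 (SE 0.15, DESeq2 adjusted p = 0.00278). Against Aged Sham, Pcsk5, another such protease, and Sdc1 were called higher (log2 fold change 1.76, SE 0.33, DESeq2 adjusted p = 4.10e-05, and 0.79, SE 0.22, DESeq2 adjusted p = 0.0126). Sdc1 was lower in Aged Bleo than in Young Bleo (-0.72, SE 0.20, DESeq2 adjusted p = 0.0387), called in 8 of 16 fits without 1 library, and Sdc4 was higher with Aged Sham against Young Sham (0.82, SE 0.23, DESeq2 adjusted p = 0.0144).

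Among 18 genes of uptake and activation, 2 were called higher and 2 lower in Young Bleo than in Young Sham (11.1% each, against 7.57% and 6.35% of all genes). The fatty acid transport proteins Slc27a1 and Slc27a3 rose (log2 fold change 1.67, SE 0.41, DESeq2 adjusted p = 0.00105, and 1.03, SE 0.32, DESeq2 adjusted p = 0.0121). Acsl1, which attaches coenzyme A to fatty acids, fell by 0.99 on the log2 scale (SE 0.27, DESeq2 adjusted p = 0.00407), and Nrp1, a co-receptor for VEGF, fell by 1.33 (SE 0.21, DESeq2 adjusted p = 8.89e-08). In Aged Bleo against Young Sham, Slc27a1 was higher (1.83, SE 0.41, DESeq2 adjusted p = 0.000352) and Nrp1 lower (-0.88, SE 0.21, DESeq2 adjusted p = 0.00109). Against Aged Sham, Acot7, which splits acyl-CoA, was lower (-0.64, SE 0.20, DESeq2 adjusted p = 0.0250).

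Of 19 genes for triglyceride storage and lipid droplets, 4 (21.1%) were called higher and 3 (15.8%) lower in Young Bleo than in Young Sham, against 7.57% and 6.35% of all genes. The droplet coat protein Plin3 rose from 1809 ± 270 to 3096 ± 153 normalized counts (DESeq2 adjusted p = 5.29e-08), and the lipases Lipe and Lipa each had a log2 fold change of 0.62 (DESeq2 adjusted p = 0.0214 and 0.0350). Hilpda and G0s2, both inhibitors of the droplet lipase ATGL, fell by 1.21 (SE 0.22, DESeq2 adjusted p = 1.97e-06) and 1.93 (SE 0.60, DESeq2 adjusted p = 0.0123) on the log2 scale, and Gpat3, which starts glycerolipid synthesis, by 0.99 (SE 0.31, DESeq2 adjusted p = 0.0120). Hilpda is also on the general capillary list. In aged mice, G0s2 was lower in Aged Bleo than in Aged Sham (-2.22, SE 0.68, DESeq2 adjusted p = 0.0245), Plin3 was higher than in Young Sham (0.64, SE 0.12, DESeq2 adjusted p = 1.24e-05), and Gpat3 was higher than in Young Bleo (1.27, SE 0.32, DESeq2 adjusted p = 0.0154).

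Of 19 genes of mitochondrial fatty acid oxidation, DESeq2 called 0 higher and 3 lower in Young Bleo than in Young Sham, where 7.57% and 6.35% of all genes were called, namely Cpt1a, which admits fatty acids to mitochondria (log2 fold change -0.90, SE 0.29, DESeq2 adjusted p = 0.0157), and the dehydrogenases Acadl and Acadm (-0.52, SE 0.18, and -0.51, SE 0.16, DESeq2 adjusted p = 0.0310 and 0.0166). edgeR called 0 of the 19, with 5 at an unadjusted p under 0.05 against 6 for DESeq2. Cpt1a was also lower in Aged Bleo than in Young Sham (-0.84, SE 0.29, DESeq2 adjusted p = 0.0349). Of 12 genes of synthesis and desaturation, 3 (25%) were called higher and 1 (8.33%) lower in Young Bleo, against the same shares of all genes. Scd1 and Scd2, which place a double bond in fatty acids, and Fasn, the synthase, rose (log2 fold changes 1.63, 0.76 and 1.00, DESeq2 adjusted p = 0.000127, 0.0413 and 0.000738), and the elongase Elovl6 fell by 1.24 (SE 0.26, DESeq2 adjusted p = 6.96e-05). Scd1 was also higher with Aged Bleo against Young Sham (1.95, SE 0.35, DESeq2 adjusted p = 3.15e-06), as was Me1, the malic enzyme (1.09, SE 0.36, DESeq2 adjusted p = 0.0263), while Elovl6 was lower (-0.73, SE 0.26, DESeq2 adjusted p = 0.0445). Me1 was higher with Aged Sham against Young Sham (1.72, SE 0.39, DESeq2 adjusted p = 0.00113) and in Aged Bleo than in Young Bleo (1.31, SE 0.38, DESeq2 adjusted p = 0.0460, called in 6 of 16 fits without 1 library).

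Of 16 known targets of the PPAR family outside the 10 genes, 1 (6.25%) was called higher and 3 (18.8%) lower in Young Bleo than in Young Sham, against 7.57% and 6.35% of all genes. With Aged Bleo against Young Sham it was 1 in each direction (6.25%, against 6.58% of all genes higher and 3.14% lower). DESeq2 called 0 in Aged Bleo against Aged Sham (3.4% of all genes higher and 2.45% lower), where 4 had an unadjusted p under 0.05 and edgeR called 0 with 3. Cyp4b1, a fatty acid hydroxylase that is also on the aerocyte list, fell from 190015 ± 28328 to 26796 ± 28487 normalized counts (DESeq2 adjusted p = 0.00140), and Cpt1a and Acadm fell as given above.

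Most partners and co-regulators of PPARs were not called. Of 16 tested, 2 were called higher (12.5%, against 7.57% of all genes) and 1 lower (6.25%, against 6.35%) in Young Bleo. Aged Bleo against Young Sham gave 3 higher (18.8%, against 6.58%) and 2 lower (12.5%, against 3.14%), and the comparison of shams gave 2 (12.5%, against 2.24%) and 1 (6.25%, against 1.12%). Nr1h3, the liver X receptor alpha, fell in all 3 comparisons with Young Sham, from 921 ± 318 normalized counts to 450 ± 75.9, 498 ± 100 and 334 ± 36.5 in Young Bleo, Aged Sham and Aged Bleo (DESeq2 adjusted p = 0.000339, 0.0227 and 1.25e-07). Cebpa, a factor that acts with Pparg in fat cells, rose from 29.3 ± 18.5 to 97.4 ± 23.6, 80.5 ± 6.67 and 149 ± 48.6 in the same order (DESeq2 adjusted p = 0.000318, 0.0283 and 3.19e-07). Cebpb rose in Aged Sham (log2 fold change 1.34, SE 0.25, DESeq2 adjusted p = 1.69e-05) and in Aged Bleo (0.80, SE 0.23, DESeq2 adjusted p = 0.00676) against Young Sham, and Ppargc1a was lower in Aged Bleo (-2.20, SE 0.70, DESeq2 adjusted p = 0.0200).

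Of 10 partners and relatives of Meox2 and Tcf15, 1 (10%) was called higher and 2 (20%) lower in Young Bleo than in Young Sham, against 7.57% and 6.35% of all genes. Meox1, the close paralog of Meox2, fell from 7362 ± 627 normalized counts in Young Sham to 4064 ± 962 in Young Bleo and 3492 ± 1363 in Aged Bleo (DESeq2 adjusted p = 0.0103 and 0.00105). Id2, an inhibitor of helix-loop-helix factors, rose in the same comparisons (log2 fold change 1.32, SE 0.32, DESeq2 adjusted p = 0.000791, and 1.02, SE 0.32, DESeq2 adjusted p = 0.0184). Tcf21, which is also on the fibroblast list, fell in Young Bleo against Young Sham (-2.29, SE 0.58, DESeq2 adjusted p = 0.00142) and in Aged Bleo against Aged Sham (-2.68, SE 0.65, DESeq2 adjusted p = 0.00262).

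**Figure D5:**
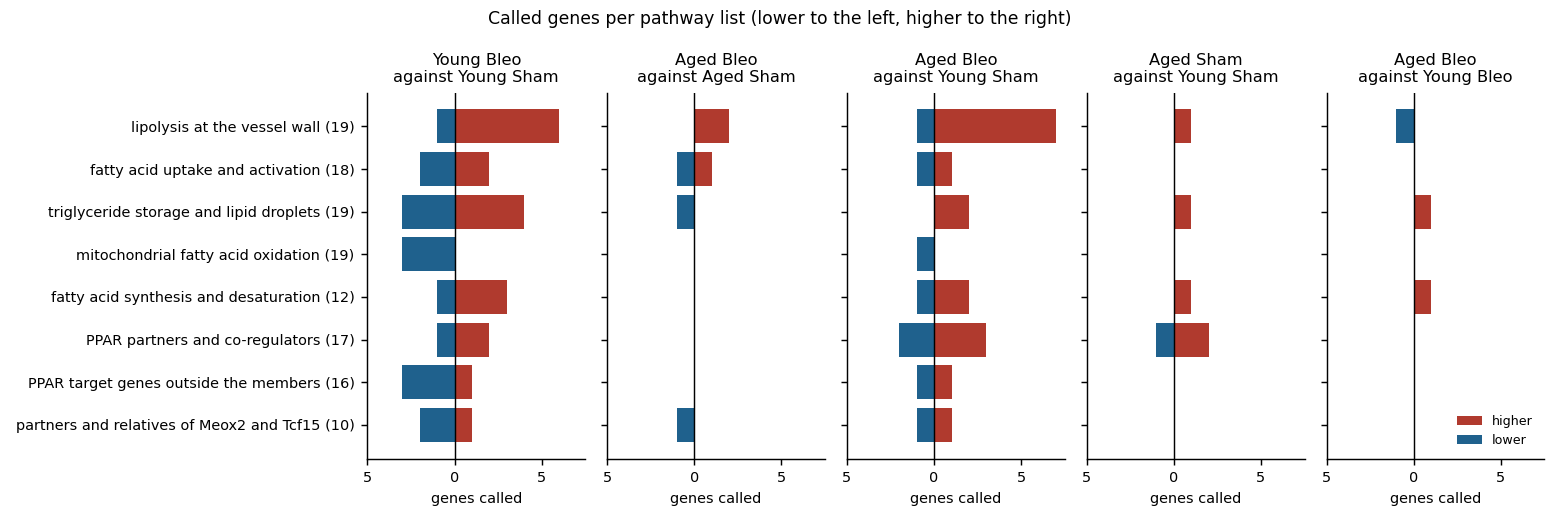
Number of genes called by DESeq2 per pathway list (list size in brackets) in the 5 comparisons, lower to the left in blue and higher to the right in red. Lipolysis at the vessel wall has the most genes called higher, 6 in Young Bleo and 7 in Aged Bleo against Young Sham.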

How the data were processed

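RNA of sorted lung ECs was sequenced in 16 libraries of 4 groups, each library a mouse. Per the labels, cDNA was made with SMART-Seq v4 and Nextera, whereas the study's methods name a poly(A) TruSeq kit. The authors aligned reads to mm10 with STAR 2.5.2b (submitters' processing notes) and counted them with Subread's featureCounts. The annotation release, strand setting and treatment of reads with several matches are not given in the sources used here. The authors deposited raw counts and FPKM values for 43346 genes in 1 table.

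The principal test was DESeq2 1.42.0 (R 4.3.3) on the deposited counts, as in the study's methods, with group as the only term over all 16 libraries, its own size factors, unshrunken log2 fold changes, Cook's and independent filtering, and Benjamini-Hochberg adjustment over all tested genes. Calls required an adjusted p no higher than 0.05 together with a log2 fold change of 0.5 or more in size. edgeR 4.0.16 quasi-likelihood, limma 3.58.1 on counts and on log2(FPKM + 0.1) or log2(FPKM + 1), other scalings and filters, fits of only the 2 groups compared and leaving out each library were alternatives. Both count tools were tested before use on simulated data of Young Bleo against Young Sham only. There the share of false calls lay well above the nominal level for DESeq2 and below it for edgeR. The other comparisons were not simulated, and calls made by DESeq2 alone are treated as the less certain throughout. Levels of different genes were compared only as FPKM.

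The 10 genes, the pathway and marker lists and the tests were chosen with earlier results of these data known. Text names all 10 genes, and for each pathway list and comparison up to 3 called genes per direction with the largest fold changes and a mean of at least 50 normalized counts. Some genes that this rule picks are counted but not reported by name here. For each of the 10 genes called at least once, the 3 genes with the smallest root mean square difference of log2(normalized count + 1) over the 16 libraries are named. Marker sums are FPKM. Replicate pairs differed by more than sampling noise, with a chi-square per degree of freedom of at least 32.8. Transcripts were compared with BLAST 2.17.0 to find copies of at least 95% identity over 200 bases, and only Fabp5 had any. Promoter windows are from RefSeq. Intervals on counts cover counting error only.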

Additional observations from a re-analysis of the deposited data

Results flagged for a closer look

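In 30 tests of a gene in a group of 4 or 5 libraries, 3 libraries stood further from their group than the 95% limit of Dixon's gap test, while about 1 in 20 groups does so by chance. Lipg in Aged Bleo replicate 5 had 36.5 normalized counts against 0 to 1.80 in the other 3 libraries. Angptl4 in Young Bleo replicate 18 had 1103 normalized counts against 395 to 431 in the other 3. Pparg in Young Bleo replicate 20 had 974 normalized counts against 1703 to 1735, and this library also had the lowest Lpl and Fabp5 of its group. Aged Sham, with 3 libraries, was not tested in this way.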

How the results depend on the processing

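Of the 19 calls made for the 10 genes, all kept their sign under each alternative that gave them an adjusted p, and with TMM scaling all 19 stayed called. edgeR kept 12, limma voom 9, and limma on log2(FPKM + 0.1) and log2(FPKM + 1) 11 and 10. In Young Bleo against Young Sham 6 genes were called, and 5 to 6 when 1 library was left out. The count of 5 came from fits without Aged Bleo replicate 1 or 2, which gave Pparg no adjusted p, and no call was lost where one was given. Aged Bleo against Aged Sham (4 called) gave 1 with edgeR, 0 with limma voom, 1 and 0 on FPKM with either pseudocount, 2 in a fit of only these groups and 1 to 5 without 1 library. Aged Bleo against Young Sham (6 called) gave 3 with limma voom and 4 to 7 without 1 library. Aged Sham against Young Sham (1 called) gave 0 with edgeR and with limma voom, 2 in a fit of only these groups and 0 to 2 without 1 library. Aged Bleo against Young Bleo (2 called) gave 0 with edgeR, limma voom and both FPKM settings, 1 with a filter on low counts, with no independent filtering or with only these groups, and 0 to 2 without 1 library. Leaving out Aged Bleo replicates 1 and 2 together, chosen after seeing the data, gave 1, 2, 2 and 4 called in these last 4 comparisons, and gave Pparg no adjusted p. Pathway genes called by DESeq2 and edgeR were 33 and 24, 6 and 1, 24 and 14, 6 and 2, and 3 and 0 in the 5 comparisons. Without 1 library DESeq2 called 23 to 35, 3 to 16, 15 to 25, 4 to 7 and 0 to 5. Over all genes, DESeq2 and edgeR called 1083 and 146 in Aged Bleo against Aged Sham, 1801 and 1043 in Aged Bleo against Young Sham, 622 and 158 in Aged Sham against Young Sham, and 188 and 8 in Aged Bleo against Young Bleo. The cause of these differences was not tested. Lipg in the bleomycin groups is limited by depth, at 0 to 45 raw counts a library. No paired analysis was possible because the groups share no replicate numbers.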
